A study of Mus musculus with 24 samples.

Results

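The genes examined were 9 members of the IL-6 cytokine system, taken by symbol from the 55421 Ensembl genes of the count table. They comprised 4 ligands (Il6, Il11, Lif and Clcf1), 4 receptor chains (Il6st, Il6ra, Lifr and Osmr) and the feedback inhibitor Socs3. All 9 passed the filter on low counts, which left 18046 genes for testing. Mouse alveolar epithelial type 2 cells (AEC2s), the surfactant-producing progenitors of the alveolus, were isolated from wild-type (WT, Krt8+/+) and keratin 8 knockout (KO, Krt8-/-) mice. RNA was taken from fresh cells on day 0 (D0) and from the same isolation after 1, 3 and 7 days of 2D culture (D1, D3 and D7). This was done on 3 dates, giving 3 biological replicates (isolations 1 to 3) in each of 8 groups and 24 RNA-Seq libraries. The knockout was global, so every cell type of the animal lacked keratin 8, and the strain, age and number of animals behind an isolation were not given in the sources used here.

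IL-6 family cytokines signal through the shared receptor chain encoded by Il6st, which each ligand engages together with a more selective partner. IL-6 uses the chain encoded by Il6ra, IL-11 uses that of Il11ra1, LIF uses that of Lifr, oncostatin M uses that of Osmr, and CLCF1 uses the Cntfr and Lifr chains. Receptor engagement activates JAK kinases and STAT3, and STAT3 induces Socs3, whose product binds the shared chain and dampens the signal. In the lung the family is known for its parts in epithelial survival and repair, the acute phase response and fibrosis.

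Library totals ran from 10184439 to 19483386 counts. Values are given as CPM, the counts of a gene relative to the library total after scaling by edgeR's TMM factors. Krt8 was at 21.1 to 47.4 CPM in the 12 KO libraries and at 484 to 5087 CPM in the 12 WT libraries. In isolation 1 the WT libraries held 62.4 to 79.5 CPM of the female-specific RNA Xist and at most 0.440 CPM of Y-linked genes in sum, while the KO libraries held 173 to 191 CPM of the Y-linked genes and 5.91 to 11.9 CPM of Xist. Within isolations 2 and 3 both genotypes were alike in these genes, so in isolation 1 genotype and sex cannot be told apart. Isolation 2 held 42.6 to 154 CPM of Xist and at most 0.241 CPM of the Y-linked genes. Isolation 3 held 174 to 229 CPM of the Y-linked genes and at most 2.24 CPM of Xist. Differences between isolations, and results with an isolation left out, are therefore mixed with sex. The 10 AEC2 markers summed to 265386 to 348776 CPM in fresh WT cells and to 305 to 3223 CPM on D7. The 6 general epithelial markers summed to 2621 to 2723 CPM on D0 and 7246 to 11366 CPM on D7, but did not move together. Between these days the WT means of the keratin genes Krt7, Krt18 and Krt19 rose from 186, 285 and 178 to 3602, 3276 and 1539 CPM. Those of Epcam, Cdh1 and Nkx2-1 fell from 344, 1092 and 590 to 227, 766 and 66.1 CPM. In bulk RNA, fewer cells of a type and less RNA per cell cannot be told apart.

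The ligand genes rose in culture while the receptor genes Lifr and Osmr and the inhibitor gene Socs3 fell. In WT cells on D1 relative to D0, 7 of the 9 members passed the test (4 higher, 3 lower), where 54.7% of all tested genes passed (26.2% higher, 28.5% lower). On D3 the WT count was 7 (4 higher, 3 lower) with a background of 54.0% (26.1% higher, 27.8% lower), and on D7 it was 8 (4 higher, 4 lower) with a background of 58.8% (28.6% higher, 30.2% lower). In KO cells the count was 7 on D1 (4 higher, 3 lower) with a background of 50.6% (23.7% higher, 26.9% lower). On D3 it was 8 (4 higher, 4 lower) with a background of 52.0% (25.4% higher, 26.6% lower), and on D7 it was 8 (4 higher, 4 lower) with a background of 58.5% (28.6% higher, 29.9% lower). With at least 50.6% of all tested genes passing in each of these comparisons, a count of 7 or 8 of 9 says little by itself, and the sizes of the changes are given gene by gene. Calls here and below are edgeR quasi-likelihood tests at an adjusted p under 0.05 (Benjamini-Hochberg over the 18046 genes), and within a genotype the D1, D3 and D7 comparisons share the same D0 libraries.

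**Figure D1:**
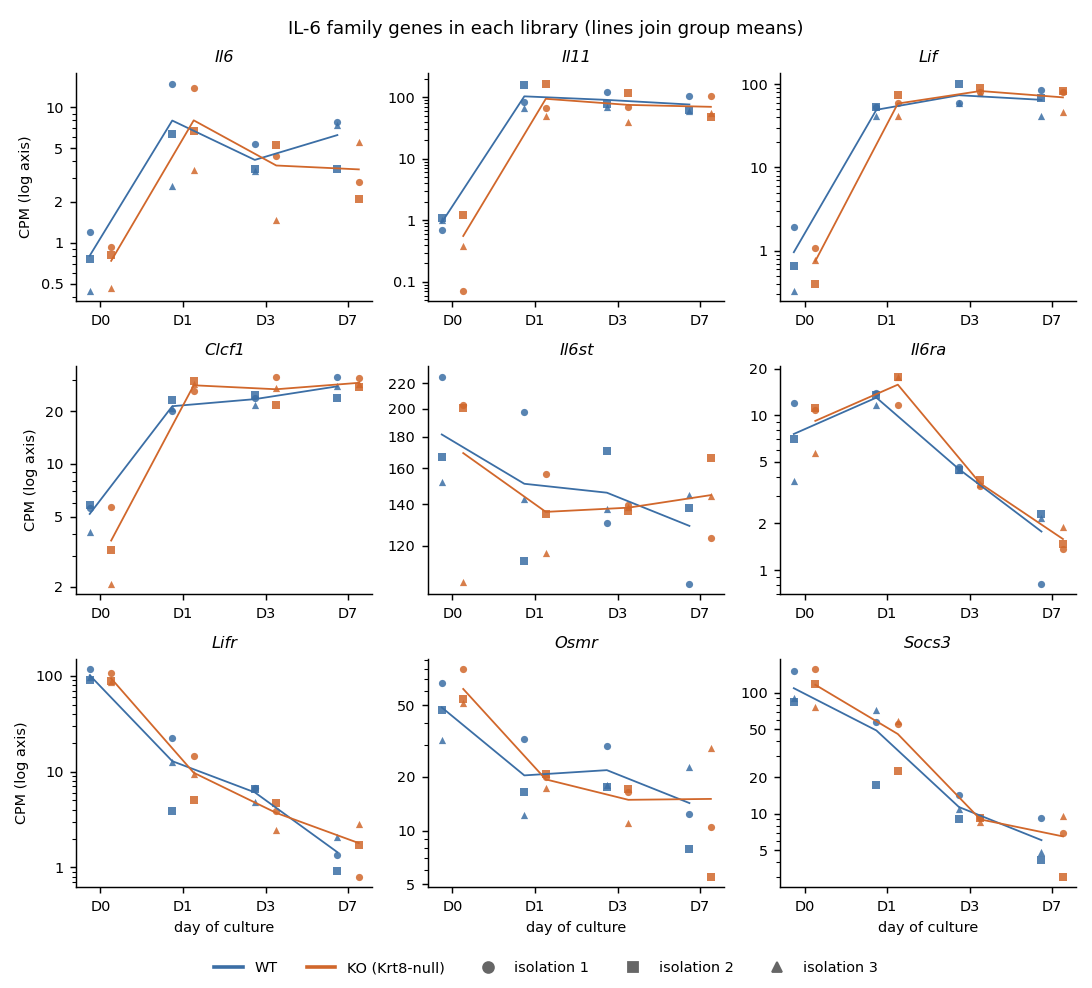
Level of each of the 9 genes in every library, as CPM on a log axis, by day of culture. Circles, squares and triangles are isolations 1, 2 and 3, and lines join the means of the WT (blue) and KO (orange) groups. All D1, D3 and D7 points of Il6, Il11, Lif and Clcf1 lie above all D0 points of the same genotype, and those of Lifr and Socs3 lie below.

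The sequences just upstream of 3 ligand genes and of Socs3 are shown because the ligand genes rose together while Socs3, a known STAT3 target, fell. The 250 bases before each RefSeq transcription start (GRCm38.p6) were searched on both strands for 4 motifs, and 8 of the 9 members, all but Clcf1, matched an entry. The motifs were the STAT-type site TTCNNNGAA, present in 7.02% of 32851 mouse promoter windows of the same length, the AP-1-type site TGANTCA (6.75%), the cAMP response element TGACGTCA (1.55%) and the NF-kB-type site, spelled GGG, any 2 bases and TTTCC (1.41%). In the windows printed here, 5′ to 3′ on the strand of the gene, capitals mark every match, and no match overlapped another. For Il11, which has 2 annotated starts, the downstream start is shown.
Il6, chr5:30012864-30013113, plus strand: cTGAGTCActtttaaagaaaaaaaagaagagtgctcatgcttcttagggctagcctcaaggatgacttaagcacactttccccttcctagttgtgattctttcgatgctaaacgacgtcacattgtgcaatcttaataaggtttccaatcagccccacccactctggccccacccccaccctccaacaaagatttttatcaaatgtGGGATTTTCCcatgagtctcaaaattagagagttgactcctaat
Il11, chr7:4778142-4778391, minus strand: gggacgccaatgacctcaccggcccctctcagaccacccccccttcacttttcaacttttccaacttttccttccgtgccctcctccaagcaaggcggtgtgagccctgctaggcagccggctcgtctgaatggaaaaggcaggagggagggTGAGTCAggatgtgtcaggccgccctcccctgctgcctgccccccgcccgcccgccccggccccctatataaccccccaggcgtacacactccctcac
Lif, chr11:4257318-4257567, plus strand: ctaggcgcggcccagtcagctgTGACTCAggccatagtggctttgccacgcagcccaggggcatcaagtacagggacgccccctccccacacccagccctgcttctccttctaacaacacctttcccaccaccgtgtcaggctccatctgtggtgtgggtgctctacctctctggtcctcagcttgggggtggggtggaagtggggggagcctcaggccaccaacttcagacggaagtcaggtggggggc
Socs3, chr11:117969367-117969616, minus strand: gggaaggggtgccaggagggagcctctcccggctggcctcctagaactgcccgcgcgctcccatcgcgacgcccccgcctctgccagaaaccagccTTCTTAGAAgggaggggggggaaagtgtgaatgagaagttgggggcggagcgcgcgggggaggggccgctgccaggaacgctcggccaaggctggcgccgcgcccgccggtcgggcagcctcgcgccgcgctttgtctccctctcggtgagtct
The Il6 window held an AP-1-type match at bases -249 to -243 from the start and an NF-kB-type match at -44 to -35. AP-1-type matches also lay at -98 to -92 in the Il11 window and at -228 to -222 in the Lif window. The Socs3 window held a STAT-type match at -154 to -146. The windows of Il6st, Il6ra, Osmr, both starts of Lifr and the upstream start of Il11 held none of the 4 motifs. These matches describe letters in the genome and were not measured as binding sites.

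Il11 (chr7:4772373-4782859, minus strand, GRCm38), which encodes a cytokine linked to epithelial and stromal responses in fibrosis, was nearly absent from fresh cells and, with all 3 isolations, had the largest fitted rise of the 9 genes on each day. In WT libraries of isolations 1, 2 and 3 its level was 0.699, 1.08 and 0.995 CPM on D0 and 85.0, 158 and 67.0 CPM on D1. On D3 the WT levels were 123, 78.8 and 69.1 CPM, and on D7 they were 106, 62.0 and 60.6 CPM. Every cultured library was above every fresh one, and the order of the isolations changed between days. The WT rise on D1 was 114-fold (95% interval 43.0 to 303, edgeR adjusted p = 6.59e-08), and the D7 level was 84.2-fold above D0 (32.0 to 222, edgeR adjusted p = 8.18e-08). In KO libraries the levels were 0.0719, 1.21 and 0.386 CPM on D0, 66.0, 166 and 50.1 CPM on D1, and 106, 46.9 and 56.0 CPM on D7. The KO rise was 185-fold on D1 (edgeR adjusted p = 4.79e-08) and 137-fold on D7 (edgeR adjusted p = 4.56e-08). These folds rest on 30 counts in the 3 fresh WT libraries and 18 in the 3 fresh KO libraries, and the KO log2 change on D7 ran from 6.07 without isolation 1 to 8.51 without isolation 2, against 7.10 with all 3. The KO change on D3, 7.20 with all isolations, was 7.94 without isolation 2.

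Lif (chr11:4257557-4272514, plus strand), whose product is best known for maintaining stem cells through the Lifr chain, also rose on D1 and stayed high. In both genotypes its mean was highest on D3 and that of Il11 on D1, but neither gene passed the test between consecutive culture days. Its WT levels were 1.91, 0.649 and 0.332 CPM on D0, 53.2, 53.0 and 41.2 CPM on D1, 60.0, 101 and 59.2 CPM on D3, and 85.5, 67.4 and 41.2 CPM on D7. Again no cultured library came near a fresh one. The WT rise was 45.1-fold on D1 (95% interval 23.9 to 85.2, edgeR adjusted p = 4.86e-09), 67.4-fold on D3 and 59.4-fold on D7 (edgeR adjusted p = 1.29e-09 and 9.37e-10). In KO cells Lif stood at 0.752 ± 0.337 CPM on D0 (SD, n = 3) and at 58.4 ± 16.5, 82.6 ± 6.44 and 69.3 ± 20.1 CPM on D1, D3 and D7, a rise of 74.2-fold, 105-fold and 87.9-fold (edgeR adjusted p = 1.88e-09, 6.29e-10 and 4.41e-10). Isolation 1 held 30 of the 39 Lif counts of fresh WT cells, and without it the WT log2 changes on D1, D3 and D7 were 6.55, 7.32 and 6.76 in place of 5.49, 6.08 and 5.89. The order of Il11 and Lif turned on this isolation: without it the Il11 change was below that of Lif on D3 and D7 in WT cells (6.14 and 5.87) and in KO cells (6.67 and 6.07, against 7.09 and 6.70 for Lif).

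Clcf1 (chr19:4214238-4223490, plus strand), which encodes the cardiotrophin-like cytokine, rose less than Il11 and Lif and was the most even of the ligands between isolations in WT cells, where its highest library was 1.14 to 1.43 times its lowest on each day. In fresh KO cells this ratio was 2.73. WT levels were 5.65, 5.84 and 4.09 CPM on D0, 20.1, 23.0 and 20.8 CPM on D1, 23.8, 24.7 and 21.7 CPM on D3, and 31.4, 23.6 and 27.9 CPM on D7. The KO levels were 5.68, 3.24 and 2.08 CPM on D0 and 25.9, 29.5 and 28.6 CPM on D1. All cultured libraries lay above all fresh ones in each genotype. The rise on D1 was 4.08-fold in WT (95% interval 2.88 to 5.77, edgeR adjusted p = 7.36e-07) and 7.58-fold in KO (5.29 to 10.9, edgeR adjusted p = 1.10e-08). On D7 it was 5.29-fold in WT and 7.83-fold in KO (edgeR adjusted p = 4.79e-08 and 3.92e-09). Clcf1 overlaps Gm26115 on the opposite strand and AC109138.7, and whether the counting used strand was not given, so reads of these genes may be mixed.

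Il6 (chr5:30013114-30019981, plus strand), the founding cytokine of the family, was the least abundant of the 4 ligands per length of transcript in culture. WT levels were 1.21, 0.757 and 0.442 CPM on D0, 15.0, 6.35 and 2.65 CPM on D1, 5.37, 3.50 and 3.40 CPM on D3, and 7.82, 3.48 and 7.42 CPM on D7. KO levels were 0.935, 0.809 and 0.463 CPM on D0, 13.9, 6.74 and 3.42 CPM on D1, 4.38, 5.30 and 1.48 CPM on D3, and 2.80, 2.10 and 5.54 CPM on D7. On D0 and D1 isolation 1 was highest and isolation 3 lowest in both genotypes, and every cultured library was above every fresh one. The rise on D1 was 9.49-fold in WT (95% interval 3.57 to 25.2, edgeR adjusted p = 0.000440) and 10.8-fold in KO (4.01 to 28.9, edgeR adjusted p = 0.000313). On D3 it was 4.86-fold in WT and 5.03-fold in KO (edgeR adjusted p = 0.00675 and 0.00648), and on D7 it was 7.43-fold and 4.70-fold (edgeR adjusted p = 0.000942 and 0.00747). The D3 calls were lost without isolation 2 (edgeR adjusted p = 0.0503 in WT and 0.0888 in KO), and the KO call on D7 was lost without isolation 3 (log2 change 1.48 in place of 2.23, edgeR adjusted p = 0.0548).

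Markers of cells other than AEC2s were detected on every day, and some of their sums rose in culture. The 9 macrophage markers, all with counts in every group, summed to 61.4, 40.5 and 24.2 CPM in WT isolations 1, 2 and 3 on D0. On D1 their sums were 215, 120 and 35.4 CPM, and on both days the order of isolations was that of Il6. In KO cells this sum was 126, 100 and 36.7 CPM on D1. On D3 the order of isolations still matched that of Il6 in WT cells but not in KO cells. On D7 the macrophage sum was 168, 57.7 and 14.2 CPM in WT and 83.4, 39.4 and 12.7 CPM in KO. Il6 did not follow this order on D7, at 7.82, 3.48 and 7.42 CPM in WT and 2.80, 2.10 and 5.54 CPM in KO. The 8 fibroblast markers, also all detected, summed to 295 to 993 CPM in WT cells on D0 and 143 to 261 CPM on D1. Their sum was 1004 to 1788 CPM on D3 and 898 to 1909 CPM on D7. These markers did not move together. Between D0 and D1 the WT mean of Pdgfra rose from 19.7 to 63.4 CPM. Those of Col1a1, Col1a2, Col3a1, Dcn and Lum fell to 19.4, 17.9, 19.9, 57.0 and 2.21 CPM. Between D0 and D7 the WT means of Col1a1, Col1a2 and Pdgfra rose from 53.9, 66.1 and 19.7 to 521, 557 and 29.6 CPM. Those of Col3a1, Dcn and Lum fell from 236, 211 and 3.44 to 80.2, 18.5 and 1.08 CPM. The 4 smooth muscle markers went from 6.75 to 37.9 CPM on D0 to 20.8 to 28.1 CPM on D1 and 1306 to 2735 CPM on D7 in WT cells. The 4 mesothelial markers went from 66.2 to 205 CPM on D0 to 193 to 359 CPM on D1 and 987 to 1871 CPM on D7, most of it Msln. On D7 the AEC2 marker sum was 3223, 1060 and 305 CPM in WT isolations 1, 2 and 3. Its mean was 1529 CPM, of which Lyz2 gave 1290 and Sftpc 48.7 CPM. The fibroblast, smooth muscle and mesothelial sums were 898, 1306 and 1547 CPM in isolation 1. They were 1002, 2735 and 1871 CPM in isolation 2 and 1909, 2407 and 987 CPM in isolation 3. In KO libraries on D7 the AEC2 sum was 241 to 1737 CPM, and these 3 sums were 834 to 3175, 2001 to 3089 and 878 to 2452 CPM. Each sum holds different genes, so the sums do not rank the cell types. The sums of 6 endothelial, 6 lymphocyte and 4 neutrophil markers were at or below 43.0, 18.3 and 2.86 CPM in every library, and Pecam1 was at 0 counts in WT cells on D3 and D7. The part of these cells in the ligand levels was not tested.

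**Figure D2:**
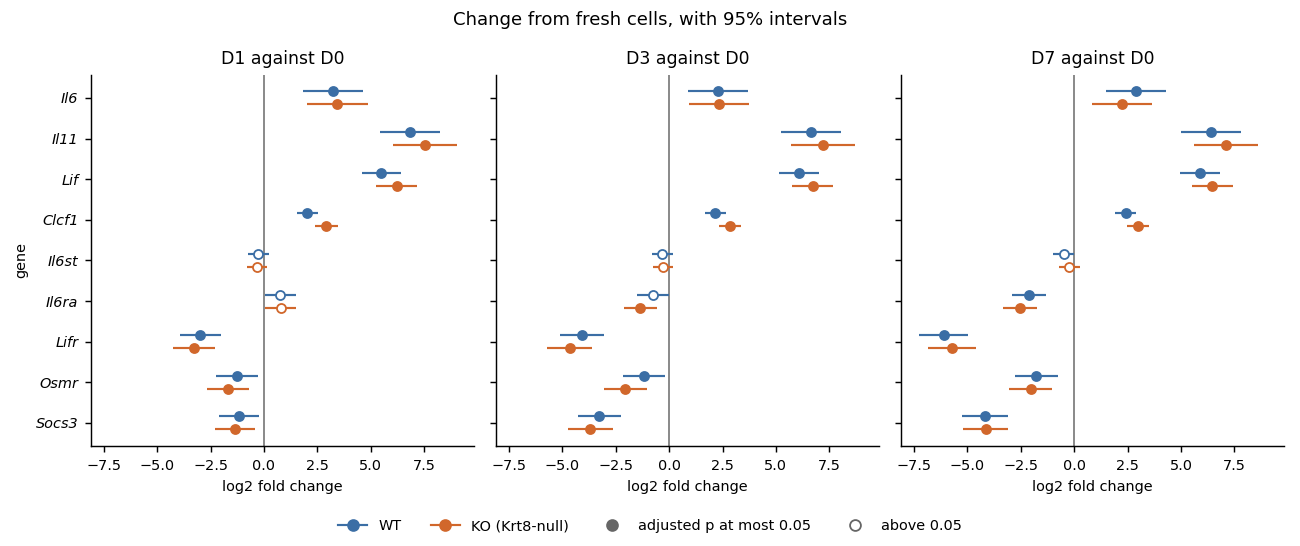
Log2 fold change of the 9 genes on D1, D3 and D7 against D0 in WT (blue) and KO (orange) cells, with 95% intervals from the edgeR fit. Filled points have an adjusted p of at most 0.05. The 4 ligands lie to the right of 0 on all days, Il6st lies near 0 with open points, and Il6ra moves from the right of 0 on D1 to the left on D7.

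Among the receptor genes, Lifr (chr15:7090614-7197489, plus strand), which encodes the LIF receptor chain, fell furthest. WT levels were 117, 91.2 and 97.3 CPM on D0, 22.2, 3.92 and 12.5 CPM on D1, 6.82, 6.6 and 4.82 CPM on D3, and 1.36, 0.911 and 2.05 CPM on D7. KO levels were 107, 89.0 and 86.6 CPM on D0, 14.7, 5.12 and 9.41 CPM on D1, and 0.80, 1.71 and 2.87 CPM on D7. Each step down separated the cultured libraries from the fresh ones, and on D1 isolation 2 was the lowest in both genotypes. The WT level was 7.88-fold lower on D1 (edgeR adjusted p = 1.92e-05), 16.8-fold lower on D3 (edgeR adjusted p = 6.57e-07) and 69.3-fold lower on D7 (edgeR adjusted p = 1.29e-08). In KO cells the level was 9.74-fold, 25.3-fold and 52.7-fold lower on D1, D3 and D7 (edgeR adjusted p = 8.42e-06, 2.15e-07 and 2.14e-08), and the D7 log2 change of -5.72 was -6.32 without isolation 3.

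Osmr (chr15:6813577-6874969, minus strand), which encodes the oncostatin M receptor chain, fell less and less evenly. WT levels were 66.8, 47.1 and 32.2 CPM on D0, 32.4, 16.4 and 12.1 CPM on D1, 29.8, 17.5 and 18.0 CPM on D3, and 12.3, 7.87 and 22.5 CPM on D7. Each isolation was lower on each later day than on D0, but the WT D0 and D1 ranges overlapped slightly because the highest D1 library was above the lowest D0 library. The WT level was 2.40-fold, 2.25-fold and 3.42-fold lower on D1, D3 and D7 (edgeR adjusted p = 0.0287, 0.0413 and 0.00335). These WT calls depended on single isolations: without isolation 1 the adjusted p in edgeR was 0.0626, 0.135 and 0.0744 on D1, D3 and D7, and without isolation 2 it was 0.137 on D1 and 0.176 on D3. KO levels went from 61.7 ± 15.3 CPM on D0 to 19.3 ± 1.74, 14.8 ± 3.30 and 15.0 ± 12.4 CPM (SD, n = 3), being 3.20-fold, 4.16-fold and 4.10-fold lower (edgeR adjusted p = 0.00607, 0.00125 and 0.00112). The KO call on D1 was lost without isolation 1 (edgeR adjusted p = 0.0651). Isolation 3 was the highest on D7 in both genotypes, at 22.5 and 29.1 CPM, and without it the D7 log2 change was -2.49 in place of -1.77 in WT and -3.05 in place of -2.04 in KO.

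Il6ra (chr3:89864059-89913196, minus strand), the chain that binds IL-6, was the receptor whose direction changed with time. WT levels were 11.9, 7.03 and 3.76 CPM on D0, 14.0, 13.4 and 11.6 CPM on D1, 4.65, 4.40 and 4.42 CPM on D3, and 0.816, 2.32 and 2.19 CPM on D7. KO levels were 10.8, 11.1 and 5.71 CPM on D0, 11.7, 17.8 and 17.8 CPM on D1, 3.49, 3.79 and 3.59 CPM on D3, and 1.37, 1.48 and 1.91 CPM on D7. All 3 isolations of each genotype were higher on D1 than on D0, and all were lower on D7. The D1 increase of 1.70-fold in WT (95% interval 1.02 to 2.84) and 1.72-fold in KO (1.03 to 2.86) did not pass in edgeR (adjusted p = 0.0736 and 0.0710). It passed in DESeq2 (adjusted p = 0.0364 and 0.0350), without isolation 1 (edgeR adjusted p = 0.0179 and 0.0301) and when both genotypes were averaged, an alternative chosen after seeing the data (edgeR adjusted p = 0.0102, with 66.5% of all tested genes passing). It weakened with another isolation left out. The log2 change, 0.77 in WT and 0.78 in KO with all 3, then went as low as 0.53 and 0.43. The edgeR adjusted p went as high as 0.273 and 0.374. The D7 level was 4.32-fold lower than D0 in WT (edgeR adjusted p = 8.35e-05) and 5.77-fold lower in KO (edgeR adjusted p = 1.12e-05), and the WT log2 change of -2.11 was -1.26 without isolation 1. On D3 the WT log2 change of -0.77 did not pass (edgeR adjusted p = 0.0784, and 0.0381 without isolation 3). The KO level was 2.53-fold lower on D3 (edgeR adjusted p = 0.00413), a call lost without isolation 2 (edgeR adjusted p = 0.112). Il6ra overlaps Gm42809 on the opposite strand, which may share its reads.

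Il6st (chr13:112464070-112510086, plus strand), the shared signalling chain, showed no change that passed the test. WT levels were 226, 167 and 152 CPM on D0, 198, 113 and 143 CPM on D1, 131, 171 and 137 CPM on D3, and 104, 138 and 145 CPM on D7. The D0 range overlapped those of D1 and D3, and on D7 the 3 WT libraries lay just below the lowest fresh one. The WT log2 changes were -0.27, -0.31 and -0.49 on D1, D3 and D7, with 95% intervals of -0.74 to 0.21, -0.79 to 0.16 and -0.97 to -0.01 (edgeR adjusted p = 0.337, 0.258 and 0.0714). The D7 change passed without isolation 3 (edgeR adjusted p = 0.0433). In KO cells the log2 changes were -0.32, -0.29 and -0.23 (edgeR adjusted p = 0.259, 0.301 and 0.414). These intervals leave room for a decrease to 0.509 of the fresh level in WT cells on D7 and allow no rise above 1.19-fold in any of the 6 comparisons.

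Socs3 (chr11:117966079-117970047, minus strand), the inhibitor that STAT3 induces, fell stepwise while the ligand genes were high. WT levels were 152, 84.4 and 91.4 CPM on D0, 57.0, 17.5 and 72.2 CPM on D1, 14.2, 9.0 and 11.0 CPM on D3, and 9.25, 4.14 and 4.83 CPM on D7. KO levels were 156, 118 and 76.0 CPM on D0, 55.6, 22.7 and 58.7 CPM on D1, 9.18, 9.21 and 8.65 CPM on D3, and 6.91, 3.03 and 9.62 CPM on D7. No cultured library reached the lowest fresh one of its genotype, and on D1 isolation 2 was far below the other two in both genotypes. The WT level was 2.23-fold lower on D1 (edgeR adjusted p = 0.0349), 9.58-fold lower on D3 (edgeR adjusted p = 1.13e-05) and 17.9-fold lower on D7 (edgeR adjusted p = 7.96e-07). The KO level was 2.55-fold, 12.9-fold and 17.7-fold lower (edgeR adjusted p = 0.0173, 3.62e-06 and 7.68e-07). The D1 calls were lost in WT without isolation 1 or 2 (edgeR adjusted p = 0.203 and 0.0833) and in a fit of the 6 libraries alone (0.0737 in edgeR), and in KO without isolation 1 or 2 (edgeR adjusted p = 0.114 and 0.0592). The KO log2 change on D7 was -4.15, and -4.76 without isolation 3.

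On D1 the isolations differed together in several of these genes and in the AEC2 markers. Isolation 2 had the highest Il11 and the lowest Lifr and Socs3 of the 3 isolations in both genotypes. The AEC2 marker sum on D1 was 108584, 19643 and 87307 CPM in WT isolations 1, 2 and 3 and 101920, 18419 and 80931 CPM in the KO isolations, so isolation 2 was also lowest in these markers. Their part in the D1 levels was not tested.

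Per kilobase of exon, the scale on which genes can be compared with each other, the order of the 9 genes turned over in culture. In fresh WT cells the level was 37.8 CPM per kilobase for Socs3, 16.4 for Il6st, 9.45 for Lifr and 4.02 for Osmr, and the ranges of these 4 genes did not overlap from one to the next. The separation of Lifr from Osmr depended on the length used: per kilobase of the longest transcript Osmr ran from 5.86 to 12.2 and Lifr from 9.45 to 12.1, which overlap. Below them stood Clcf1 at 1.37, Il6ra at 0.877, Il11 at 0.445, Il6 at 0.330 and Lif at 0.221 CPM per kilobase, where each gene overlapped the next in range. On D7 the highest level was 36.5 CPM per kilobase for Il11, followed by Lif at 14.9, Il6st at 11.6 and Clcf1 at 7.26. Lif and Il6st overlapped, as did Il6 at 2.57, Socs3 at 2.10 and Osmr at 1.17, and the lowest levels were 0.205 for Il6ra and 0.134 for Lifr, which also overlapped. The 4 ligand genes were thus among the lowest 5 of the 9 in fresh cells, and on D7 Il11, Lif and Clcf1 were among the highest 4.

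**Figure D3:**
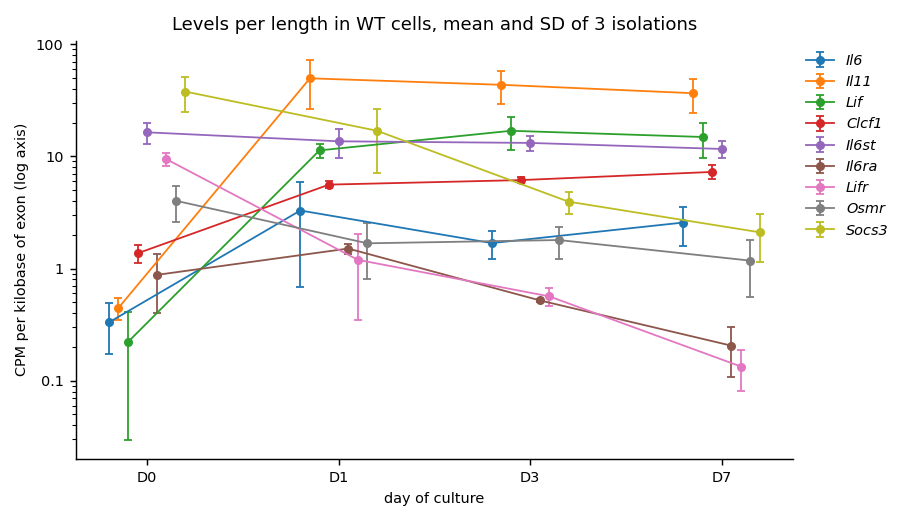
Level of each gene in WT cells as CPM per kilobase of exon on a log axis, by day of culture, as the mean of 3 isolations with the SD as bars. Il11 goes from 0.445 to 36.5 CPM per kilobase between D0 and D7, and Socs3 from 37.8 to 2.10.

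No ligand gene passed the test between consecutive culture days, while some receptor genes and Socs3 fell further. From D1 to D3 in WT cells 2 members passed, both lower, where 26.3% of all tested genes passed (11.9% lower). These were Il6ra, at a log2 change of -1.53 (edgeR adjusted p = 0.00377), and Socs3, at -2.10 (edgeR adjusted p = 0.00261). Leaving out isolation 2 ended the call for Il6ra (edgeR adjusted p = 0.0840) and brought Lifr past the threshold (0.0320 in edgeR), and leaving out isolation 3 ended the call for Socs3 (edgeR adjusted p = 0.0778). In KO cells 3 members passed, all lower, with a background of 23.6% (10.2% lower): Il6ra at -2.12, Lifr at -1.38 and Socs3 at -2.34 on the log2 scale (edgeR adjusted p = 0.000323, 0.0401 and 0.00142). The KO call for Lifr was lost without isolation 1 or 3 (edgeR adjusted p = 0.228 and 0.254). The WT changes of the ligands from D1 to D3 were -0.96 for Il6, -0.19 for Il11, 0.58 for Lif and 0.13 for Clcf1 on the log2 scale, with 95% intervals of -2.19 to 0.26, -1.16 to 0.78, -0.09 to 1.25 and -0.33 to 0.60.

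From D3 to D7, 2 members passed in WT cells, both lower, where 6.58% of tested genes passed (3.47% lower). They were Il6ra at a log2 change of -1.34 (edgeR adjusted p = 0.0368) and Lifr at -2.05 (edgeR adjusted p = 0.0202). Neither call held when any 1 isolation was left out (edgeR adjusted p = 0.0734 to 0.251 for Il6ra and 0.0953 to 0.107 for Lifr). In KO cells 0 members passed in edgeR, where 10.5% of all tested genes did. In edgeR 1 member, Il6ra, had an unadjusted p under 0.05, and DESeq2 called 1 member, also Il6ra, at a log2 change of -1.19 in edgeR (adjusted p = 0.0521 in edgeR and 0.0213 in DESeq2). With both genotypes averaged, the D3 to D7 log2 change was -1.27 for Il6ra (edgeR adjusted p = 0.00194) and -1.55 for Lifr (edgeR adjusted p = 0.00462), with 20.4% of all tested genes passing.

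The comparison of KO with WT cells asked whether loss of keratin 8 changed these genes in fresh or cultured cells. In edgeR 0 of the 9 members passed on D0, where 0.0277% of all tested genes did, and 0 passed on D1, D3 and D7, where 0.0166% did on each day. No member had an unadjusted p under 0.05 on any day in edgeR, and DESeq2 also called 0 members on each day. The test of whether the genotype difference depended on day called 0 members in edgeR and in DESeq2, with 0.00554% of all tested genes passing in edgeR and 0 members at an unadjusted p under 0.05. The intervals show what differences the data leave room for: on D1 the KO level relative to WT was 1.19-fold for Lif (95% interval 0.745 to 1.90), 0.913-fold for Il11 (0.467 to 1.79), 1.00-fold for Il6 (0.433 to 2.32) and 1.32-fold for Clcf1 (0.954 to 1.82). Intervals were about as narrow for Il6st, at 0.646 to 1.25 of the WT level on D1 and 0.805 to 1.56 on D7, as for Clcf1. The widest were on D0, where the interval for Il11 ran from 0.139 to 2.29 of the WT level.

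Clcf1 had the lowest unadjusted p for a genotype difference. In fresh cells it was at 5.20 ± 0.961 CPM in WT and 3.67 ± 1.84 CPM in KO (SD, n = 3), lower in 2 of 3 isolations, and on D1 it was at 21.3 ± 1.55 CPM in WT and 28.0 ± 1.89 CPM in KO, higher in 3 of 3. The unadjusted p was 0.0609 on D0 and 0.0907 on D1, the unadjusted p for dependence on day was 0.0874, and the adjusted p was 1 in each of these edgeR tests. Without isolation 1, in which the sexes of the genotypes differed, the D0 log2 difference was -0.91 (unadjusted p = 0.00513, edgeR adjusted p = 1) in place of -0.50, and still 0 of the 9 members passed on any day. With each isolation left out in turn, the D0 difference of Clcf1 ran from -0.91 to -0.34. On D3 the fitted log2 differences were -0.31 for Il6ra, -0.70 for Lifr and -0.55 for Osmr, and each interval included 0 (95% intervals -1.07 to 0.45, -1.69 to 0.28 and -1.53 to 0.43, edgeR adjusted p = 1 for each). On D7 Il6 had the largest fitted difference of the 9 genes in culture, at 0.559 of the WT level in KO cells (95% interval 0.238 to 1.31, log2 difference -0.84, edgeR adjusted p = 1), lower in 3 of 3 isolations but with overlapping ranges. Leaving out 1 isolation gave Il6 log2 differences of -1.20 to -0.51 (edgeR adjusted p = 1 each time).

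**Figure D4:**
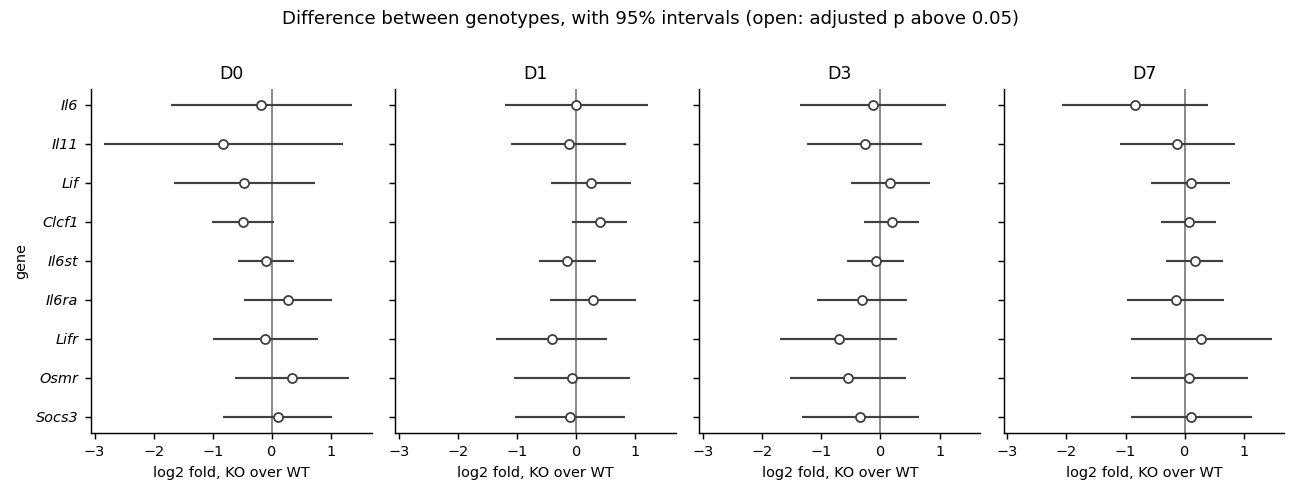
Log2 fold difference of KO over WT for each gene on D0, D1, D3 and D7, with 95% intervals from the edgeR fit. Every point is open, having an adjusted p above 0.05, and every interval includes 0.

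The other ligands and receptors of the family were read from the same table. Of the further ligand genes, Osm, Cntf, Ctf1 and Ebi3 passed the filter, and Ctf2, Il27 and Il31 did not. Ctf1, which encodes cardiotrophin, fell from 17.1 to 2.81 CPM on D1 (log2 change -2.61, edgeR adjusted p = 2.14e-06). Osm, the ligand of the Osmr chain, did not exceed 1.94 CPM in any library.

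Of 5 further receptor genes, 3 passed the filter. Il11ra1, which encodes the receptor chain for IL-11, fell from 56.9 ± 5.12 CPM in fresh WT cells to 21.2 ± 3.91 on D1 and 24.3 ± 0.881 on D7 (SD, n = 3), while its ligand gene rose (log2 changes -1.43 and -1.23, edgeR adjusted p = 1.39e-06 and 5.42e-06). Cntfr, the chain used by CLCF1, fell from 30.4 to 1.63 CPM on D1 and stood at 8.08 CPM on D7 (log2 changes -4.19 and -1.91, edgeR adjusted p = 4.56e-05 and 0.0117). Il27ra did not pass on any day, and Il11ra2 and Il31ra were too low to test.

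Downstream of the receptors, 7 of 11 transducer genes passed in WT cells on D1 (1 higher, 6 lower), where 54.7% of all tested genes passed, with a median log2 change of -0.60 against 0 for all tested genes. On D7 the count was 6 (1 higher, 5 lower), where 58.8% passed, so on both days the share called was near the background. Stat3, the main transcription factor of the pathway, fell from 444 ± 35.2 CPM on D0 to 151 ± 54.9 on D1 and 128 ± 12.9 on D7 (SD, n = 3), at log2 changes of -1.55 and -1.79 (edgeR adjusted p = 1.36e-06 and 1.40e-07). Jak2 and Stat5a also fell on D1, at log2 changes of -1.39 and -1.58, whereas Ptpn11, which encodes the phosphatase SHP2, rose on D7 from 56.7 to 121 CPM (edgeR adjusted p = 2.23e-05).

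Of 9 other feedback and inhibitor genes, 7 passed in WT cells on D1 (3 higher, 4 lower) and 6 on D7 (0 higher, 6 lower), where 54.7% and 58.8% of all tested genes passed (28.5% and 30.2% lower). Unlike Socs3, Socs1 rose on D1, from 1.90 ± 0.556 to 9.72 ± 2.13 CPM (log2 change 2.33, edgeR adjusted p = 0.000383), and Cish rose from 27.8 to 69.4 CPM (1.32, edgeR adjusted p = 0.000329). Socs2, another member of this inhibitor family, fell from 292 to 66.6 CPM (log2 change -2.13, edgeR adjusted p = 2.47e-10). On D7 the largest decreases of this list were those of Socs2, Ptpn6, Pias1 and Ptpn1, at log2 changes of -1.83, -1.24, -1.15 and -0.98.

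Of 24 genes known to respond to STAT3, 23 were tested and 15 passed in WT cells on D1 (3 higher, 12 lower), where 54.7% of all tested genes passed (28.5% lower), with a median log2 change of -0.85. On D7 18 passed (6 higher, 12 lower), where 58.8% passed (30.2% lower), and the median was -0.95, again against 0 for all tested genes. The acute phase gene Hp went from 29938 counts in the 3 fresh libraries to 989 on D1 and 3 on D7. Lrg1 went from 8709 counts on D0 to 1 on D7, and Reg3g from 292 to 0. The members that rose most were Timp1, a metalloproteinase inhibitor gene, from 0.824 ± 0.550 to 65.3 ± 37.4 CPM on D1 and 439 ± 109 on D7 (edgeR adjusted p = 2.01e-07 and 1.84e-09), and the growth gene Myc, from 9.75 ± 1.24 to 267 ± 80.7 CPM on D1 (edgeR adjusted p = 9.76e-13). Several of these genes are also known as AEC2 host defence genes or respond to other signals.

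Of 6 genes that act on Il6 mRNA or on shedding of its receptor, 3 passed in WT cells on D1 (1 higher, 2 lower) and 5 on D7 (2 higher, 3 lower), against backgrounds of 54.7% and 58.8%, so the D1 share was not above that of all tested genes. Zfp36, whose product speeds decay of cytokine mRNAs, fell from 364 ± 51.5 to 84.2 ± 25 CPM on D1 and 53.4 ± 4.46 on D7 (edgeR adjusted p = 3.25e-07 and 6.87e-09). Arid5a, whose product stabilises Il6 mRNA, rose from 7.72 ± 4.71 to 29.2 ± 4.13 and 27.0 ± 7.74 CPM (edgeR adjusted p = 0.000466 and 0.000642). Adam17, which encodes the sheddase of the Il6ra chain, was lower on D1 and D7, at log2 changes of -0.85 and -0.69 (edgeR adjusted p = 0.000136 and 0.000782). Between KO and WT cells 0 genes of these 6 lists passed in edgeR on any day, with 1 STAT3 response gene at an unadjusted p under 0.05 on each of D0, D1 and D7.

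**Figure D5:**
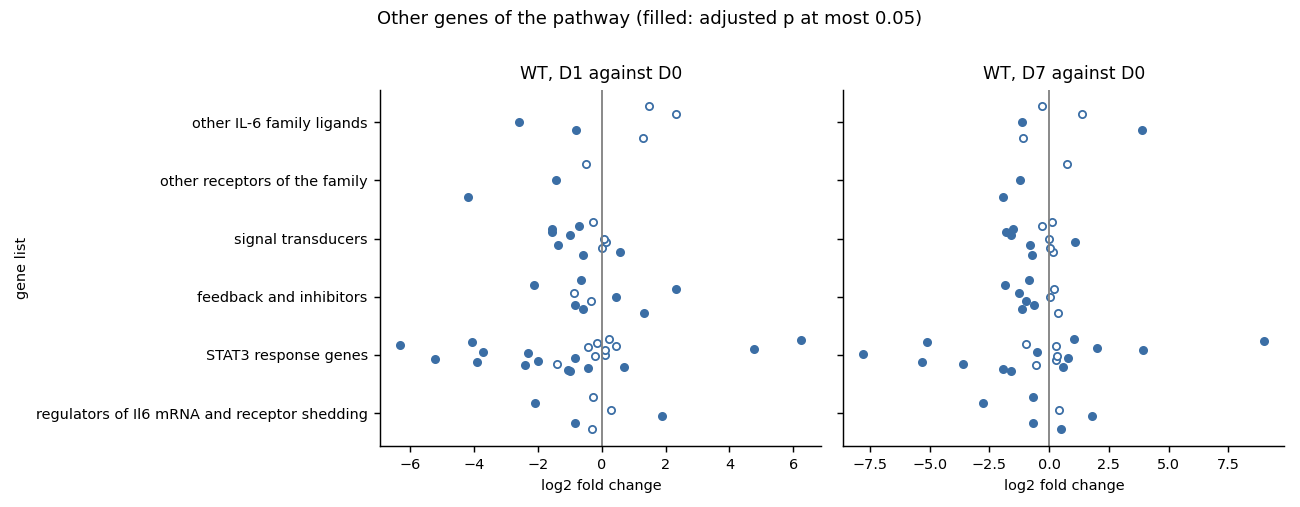
Log2 fold change in WT cells on D1 (left) and D7 (right) against D0 for the tested genes of 6 pathway lists, 1 point a gene, filled where the edgeR adjusted p was at most 0.05. The 5 genes with 3 or fewer counts in the D7 libraries are left out of the right panel. On D1 most filled points of the transducer and STAT3 response lists lie to the left of 0, and on D7 most of those of the transducer list do. The genes left out on D7 all belong to the STAT3 response list.

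The genes whose log2 CPM ran most like that of each member across the 24 libraries were found by Pearson correlation, as a description of libraries that share isolations. Those nearest to Il11 were Ranbp1 (r = 0.983), Grwd1 (0.981) and Cct6a (0.98), and those nearest to Lif were Ier3 (0.988), Sdcbp2 (0.986) and F3 (0.983), the gene for tissue factor. Clcf1 was nearest to Abcb1b (0.981), Rin1 (0.976) and Ankrd13b (0.976), and Il6 to Pwp2 (0.927), Wdr36 (0.920) and Naa25 (0.913). Lifr was nearest to Slc12a2 (0.983), Mindy1 (0.982) and Atp2a3 (0.98), and Socs3 to Slc1a5 (0.977), the AEC2 marker Lamp3 (0.975) and Sowahc (0.974). Osmr was nearest to St3gal1 (0.939), Il6ra to Entpd5 (0.930) and Il6st to Zfp638 (0.875), the lowest of the 9 closest matches. By Spearman correlation only 5 of these 27 nearest genes stayed among the closest 3, so the names depend on the measure.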

How the data were processed

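RNA-Seq was measured in 24 libraries of mouse AEC2s, and the unit of the deposited table was the unnormalised count of reads for an Ensembl gene. The submitters' processing notes name cutadapt 2.3, STAR 2.7.8a, RSEM 1.3.3 and the build GRCm38 without their roles. Whether the whole-number counts are rounded RSEM estimates, and whether counting used strand, was not given in the sources used here. Of 55426 rows, 5 were reporter sequences with 0 counts, and 55154 Ensembl IDs matched a symbol in GENCODE M21. At most 0.0644% of a library's counts lacked a symbol.

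Counts were scaled by TMM, filtered (at least 10 counts in enough libraries and 15 in total) and tested with edgeR 4.0.16 in R 4.3.3, by the quasi-likelihood F test over 8 groups (16 residual degrees of freedom), with Benjamini-Hochberg adjustment over 18046 genes and a threshold of 0.05. Intervals are 95%. A simulated table with known changes was used to check the fit. The depth of 10184439 to 19483386 counts limits precision mainly for the ligands in fresh cells. No libraries of a group were identical (24 pairs compared).

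The 9 members and the pathway lists were chosen with earlier results of these data known. Every member was named. From each pathway list, the 4 genes with the largest change past the threshold in WT D1 and D7 against D0, with at least 1 CPM and the same direction in each isolation, were named, as were any further ligands and receptors of the family and the 3 genes nearest to each member, except 1 gene of these lists that is not reported here. CPM per kilobase used the union of exons in GENCODE M21, and promoters came from RefSeq (GRCm38.p6).

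The series' design text says that isolation and culture were run on 3 dates, and the labels give each library its date as a batch beside its replicate number, so a number marks a shared date and pairs the samples. Deviations from group means of same-numbered libraries correlated at 0.0573 to 0.548 between genotypes of a day and -0.0345 to 0.383 between days. Alternatives were DESeq2 1.42.0 size factors and its test, no filter, the replicate block, a fit of the 6 libraries compared, each isolation left out, and both genotypes averaged.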

Additional observations from a re-analysis of the deposited data

How the results depend on the processing

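The direction of every member that passed in the day comparisons held under all alternatives run, and the replicate block changed no call of a member. The counts of members called moved by over 1.5 times in 3 comparisons. From D3 to D7 in WT cells 2 became 1 in the fit of the 6 libraries and 0 to 0 with an isolation left out. From D1 to D3 in WT cells, 2 became 1 to 2 with an isolation left out. From D3 to D7 in KO cells, 0 became 1 with DESeq2 size factors and with the DESeq2 test. Against D0 the DESeq2 test called 8 in place of 7 on D1 in each genotype, and the fit of the 6 libraries called 6 in WT on D1. With an isolation left out, the counts on D1, D3 and D7 against D0 were 5 to 7, 5 to 8 and 7 to 9 in WT and 6 to 7, 6 to 8 and 7 to 8 in KO, and from D1 to D3 in KO 2 to 3. Per kilobase of the longest transcript, Il6st was at 20.9 and 14.9 and Osmr at 8.86 and 2.59 CPM on D0 and D7 in WT cells, and 5 nearest genes were shared between the correlation measures.

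The changes that reversed were of members not called in that comparison. With DESeq2 size factors and the DESeq2 test, Il6st from D1 to D3 in KO cells was at -0.022 and -0.022 (log2), and Il6 in KO over WT on D1 at -0.011 and -0.0096. Under the replicate block, Il6, Il11 and Osmr from D3 to D7 in KO cells were at 0.055, 0.017 and -0.026. With both genotypes averaged, Osmr from D1 to D3 was at -0.14 (WT sign reversed), Clcf1 at 0.029 and Il6st at -0.013 (KO signs reversed), and from D3 to D7 Il6, Il6st and Osmr were at 0.26, -0.056 and -0.29 (KO signs reversed). The cause was not tested.

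With an isolation left out, ranges that crossed 0 were -0.48 to 0.026 for Il6st in KO from D0 to D7. In WT from D1 to D3 they were -0.60 to 0.34 for Il11, -0.34 to 0.27 for Il6st and -0.050 to 0.31 for Osmr, and from D3 to D7 -0.56 to 0.073 for Lif. In KO from D1 to D3 they were -0.26 to 0.073 for Clcf1 and -0.080 to 0.13 for Il6st, and from D3 to D7 -0.97 to 0.49 for Il6, -0.61 to 0.58 for Il11, -0.058 to 0.18 for Il6st and -1.05 to 0.51 for Osmr. For KO over WT they were, on D0, -0.30 to 0.057 for Il6, -0.81 to 0.30 for Lif, -0.31 to 0.041 for Il6st and -0.077 to 0.21 for Socs3. On D1 they were -0.055 to 0.19 for Il6, -0.27 to 0.41 for Osmr and -0.18 to 0.065 for Socs3, and on D3 -0.59 to 0.13 for Il6, -0.84 to 0.083 for Il11 and -0.16 to 0.034 for Il6st. On D7 they were -0.018 to 0.24 for Lif, -0.0056 to 0.12 for Clcf1, -0.40 to 0.12 for Il6ra, -0.33 to 0.19 for Osmr and -0.42 to 0.51 for Socs3.

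Leaving out an isolation ended 24 calls of single members in all, given beside the genes. The fresh-cell levels of Il6, Il11 and Lif rest on 30, 30 and 39 counts in the 3 WT libraries, which limits the precision of their folds.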
